A study of Mus musculus with 16 samples.

Results

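Of the 55385 genes listed in the count table, 10 form the MHC class I antigen presentation genes described here: *B2m*, *H2-K1*, *H2-D1*, *Tap1*, *Tap2*, *Tapbp*, *Nlrc5*, *Psmb8*, *Psmb9* and *Erap1*. They were chosen by gene symbol, with earlier results of these data known. All 10 passed the filter on low counts that left 14513 genes for testing. MHC class I molecules display peptides from proteins made inside the cell to CD8 T cells and to receptors of NK cells. The peptides are cut by the proteasome, carried into the endoplasmic reticulum by the TAP transporter, trimmed, and loaded onto a heavy chain bound to beta-2 microglobulin. Interferons raise most genes of this pathway, and microglia can express them at higher levels in neurodegenerative disease than in the healthy brain.

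Brains of female mice aged 20 weeks, freed of meninges and choroid plexus, were the source of the CD11b+ cells, which were pulled out with magnetic beads. Microglia and other myeloid cells carry CD11b on their surface. There were 16 libraries, 4 of each genotype: WT, *Card9*-/-, 5xFAD and *Card9*-/-5xFAD. 5xFAD mice carry mutant human transgenes, driven by the neuronal Thy1 promoter, and accumulate Aβ. *Card9*-/- mice carry a germline deletion of *Card9*, which encodes an adaptor of innate immune receptors, so the deletion is present in every cell of the animal. All genotypes came from crosses of 5xFAD, *Card9*-/- and C57BL/6J mice, and the labels do not say whether a library held 1 brain or a pool. P-values therefore measure the spread between these libraries.

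Between 2970148 and 19333325 reads per library were counted on genes, which leaves *Nlrc5* with as few as 11 counts in a library and *B2m* with at least 9877. Expression is given as CPM, counts scaled to the same library total, after TMM scaling, a correction for differences in library composition. *Card9* itself did not part the genotypes, with 13.6 to 51.3 CPM in WT and 16.7 to 34.8 CPM in *Card9*-/- libraries, so the genotypes rest on the labels. In 4 libraries, 1 of each genotype (WT replicate 1, *Card9*-/- replicate 4, 5xFAD replicate 1 and *Card9*-/-5xFAD replicate 4), 8 microglia markers summed to 10778 to 13313 CPM, against 18094.5 to 30068 CPM in the other 12. The same 4 libraries held 2098 to 6287 CPM of neutrophil markers, against 490.4 to 2222 CPM in the other 12, and 1130.1 to 2503 CPM of choroid plexus or ependymal markers, against 3.06 to 859 CPM. Of these libraries, *Card9*-/- replicate 4 and *Card9*-/-5xFAD replicate 4 also had the lowest totals of all, at 3229322 and 2970148 counts. The next lowest total was 5346747, in WT replicate 1. Counts that lead a result are also given without these 4 libraries.

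Promoter sequence is shown for *H2-K1*, *H2-D1* and *B2m* because these 3 genes encode the class I molecule itself and shared a spaced pair of motifs. In all 3, TGACG was followed after 20 bases by ATTGG on the strand of the gene. The sequences come from RefSeq windows on GRCm38.p6 that run from 250 bases before the gene start to 50 bases after it. Windows were at hand for 8 of the 10 members. In the lines below the capitals mark both of these motifs and, in the longer stretches, matches to the NF-kB consensus and to an interferon response element core (GAA or GAAA, followed after 2 bases by GAAA, on either strand).
H2-K1, chr17:34000359-34000474, minus strand: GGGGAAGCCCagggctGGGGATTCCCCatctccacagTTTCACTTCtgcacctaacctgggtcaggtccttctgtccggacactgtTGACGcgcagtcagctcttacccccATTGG
B2m, chr2:122147548-122147638, plus strand: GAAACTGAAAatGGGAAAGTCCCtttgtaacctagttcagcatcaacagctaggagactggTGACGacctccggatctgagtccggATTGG
H2-D1, chr17:35262993-35263022, plus strand: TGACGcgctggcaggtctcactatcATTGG
The TGACG began 41 bases before the RefSeq gene start in *H2-K1*, 101 bases before it in *H2-D1* and 78 bases before it in *B2m*. *H2-K1* also had a window with another RefSeq start, from which the same TGACG lay 55 bases before. The RefSeq start of *H2-D1* lies downstream of the start of the gene in GENCODE, so its motif is inside the GENCODE gene. Only the 30 bases of the spaced motif are printed for *H2-D1*, since they lie in the annotated 5′ UTR of its transcript H2-D1-202. Over the 116 bases that end with ATTGG, *H2-K1* and *H2-D1* were identical at 105 positions (90.5%). The order of motifs differed between the genes. The NF-kB matches preceded the interferon core in *H2-K1*, while the interferon core came first in *B2m*.

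The spaced pair was rare, and the spacing was taken from these genes. It was present on either strand in 31 of 32851 windows (0.0944%), under 27 gene symbols, whereas TGACG alone was in 20.8% of windows and ATTGG alone in 37.4%. The interferon core was in 10.4% of windows and the NF-kB consensus in 26.8%. Among the members, the interferon core was also found in *Erap1*, beginning 4 bases before its start. The windows of *Psmb9* and *Tap1* held TGACG and ATTGG on opposite strands and without the spacing, that of *Tapbp* held ATTGG alone, and that of *Psmb8* held none of the motifs searched.

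Levels of the members can be compared with each other once divided by the length of the main transcript. The median over the 16 libraries was 3693 CPM per kb for *B2m*, the invariant light chain, 1047 for *H2-D1* and 468 for *H2-K1*, the classical heavy chains. *Psmb8* and *Psmb9*, catalytic subunits of the immunoproteasome, stood at 148 and 126 CPM per kb, and *Tapbp* (tapasin, which holds the empty class I molecule at the transporter) at 115. *Tap2* and *Tap1*, which pair to form the TAP transporter, stood at 16.2 and 14.0 CPM per kb. *Erap1*, a peptidase that trims peptides in the endoplasmic reticulum, was at 6.49 CPM per kb, and *Nlrc5*, the transactivator of class I genes, at 0.676. Each gene was above the next in this order in 16 of 16 libraries, except for *Psmb8* over *Psmb9* (13 of 16), *Psmb9* over *Tapbp* (7 of 16) and *Tap2* over *Tap1* (9 of 16). These 3 pairs of neighbours thus did not keep 1 order.

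**Figure D1:**
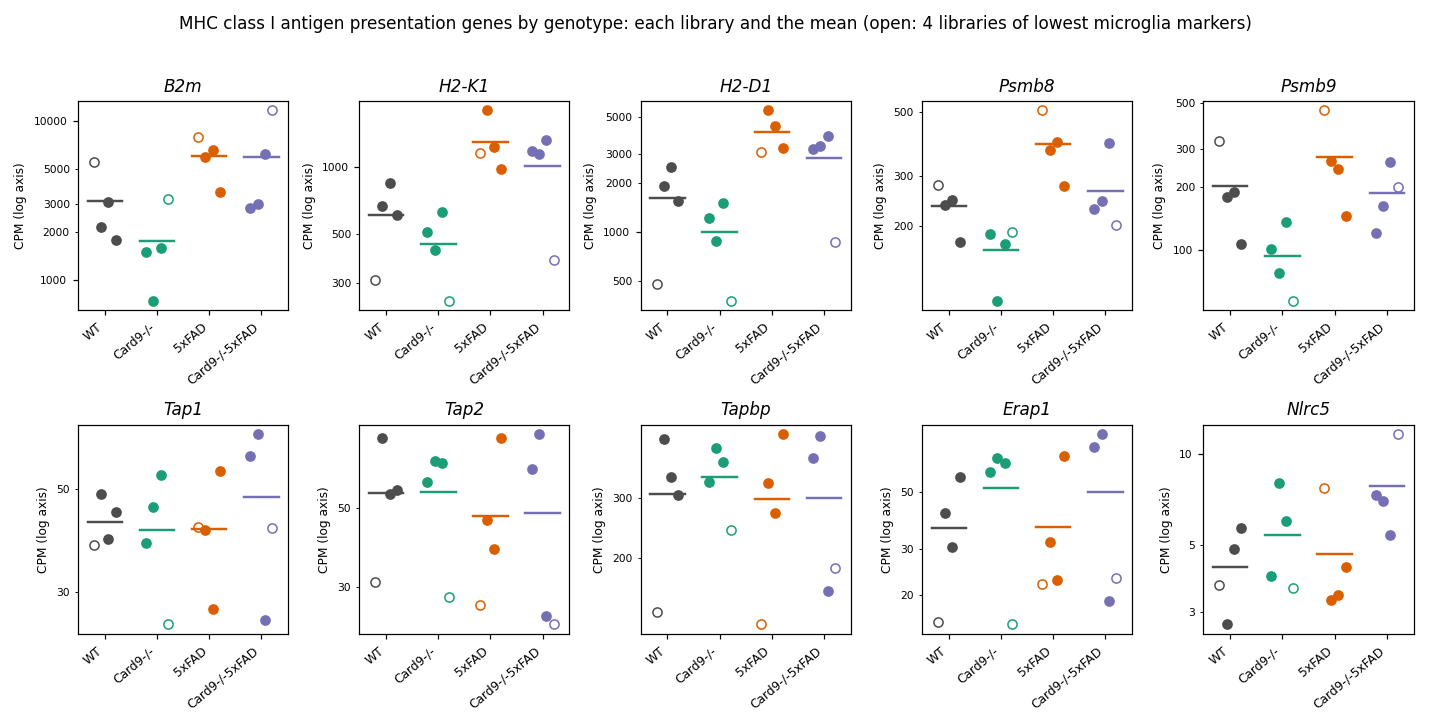
CPM of each member (log axis) in every library by genotype; points are libraries, lines are means of 4, and open points are the 4 libraries of lowest microglia markers. H2-K1 and H2-D1 were higher in every 5xFAD library than in every WT library, and the lowest H2-D1 value of each genotype is an open point.

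The first question was whether the 5xFAD transgenes changed the pathway. The class I molecule and 1 immunoproteasome subunit were higher with the transgenes, while the transporter, loading and trimming genes were not called in either direction. With the effect averaged over both *Card9* genotypes, 4 of 10 members passed an FDR of 0.1, all of them higher: *H2-D1*, *B2m*, *H2-K1* and *Psmb8*. Of all genes tested, 11.3% passed in this comparison, 5.62% as higher and 5.73% as lower. The median log2 fold change of the 10 members was 0.51, against −0.15 over all 14513 genes. Within the separate comparisons no member passed with edgeR. In 5xFAD against WT, 0 of 10 members passed (2.09% of all genes did). An unadjusted p under 0.05 was found for 3 of 10, against 10.8% of all genes. In *Card9*-/-5xFAD against *Card9*-/-, 0 of 10 passed (1.97% of all genes did). Here 5 of 10 had an unadjusted p under 0.05, against 12.2% of all genes. DESeq2 on all libraries called 0 and 3 members in the same comparisons, with 3.24% and 4.82% of all genes. Libraries of the groups compared were fully apart for 2 of 10 members (*H2-K1* and *H2-D1*) in the first comparison, against 8.04% of all genes, and for 1 of 10 (*Psmb8*) in the second, against 7.01%.

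*H2-D1* encodes a classical heavy chain and lies on the plus strand of chromosome 17 from 35262730 to 35267499 in GRCm38. Its levels were 478, 1901, 2500.0 and 1541 CPM in the WT libraries and 3094, 5517, 4458.5 and 3261 CPM in the 5xFAD libraries. All 4 5xFAD libraries were above all 4 WT libraries. Levels were 1209, 881, 1508 and 379.8 CPM in *Card9*-/- libraries and 3205, 3357, 3861 and 863 CPM in *Card9*-/-5xFAD libraries. These ranges overlapped through *Card9*-/-5xFAD replicate 4, which was below 3 of the 4 *Card9*-/- libraries. The log2 fold change was 1.35 (SE 0.53, FDR = 0.342) in 5xFAD and 1.50 (SE 0.53, FDR = 0.228) in *Card9*-/-5xFAD, and 1.43 (SE 0.38, FDR = 0.0325), or 2.69-fold, when averaged.

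*H2-K1*, the other classical heavy chain, is a minus-strand gene of chromosome 17 (33996017 to 34000347). Its levels were 311, 669, 845 and 609.5 CPM in WT and 1152, 1794, 1223.5 and 982 CPM in 5xFAD. The lowest 5xFAD library was above the highest WT library. In *Card9*-/- libraries levels were 509, 421.5, 628 and 251 CPM, and in *Card9*-/-5xFAD libraries 1177, 1147.5, 1317 and 383 CPM. As for *H2-D1*, replicate 4 was the lowest library of both of these genotypes, and the ranges overlapped through it. The log2 fold change was 1.08 (SE 0.41, FDR = 0.314) in 5xFAD, 1.15 (SE 0.41, FDR = 0.232) in *Card9*-/-5xFAD and 1.12 (SE 0.29, FDR = 0.0308) when averaged, which is 2.17-fold. *H2-K1* and *H2-D1* are similar in sequence to each other and to other heavy chain genes, so reads that match several of them could be left out or misassigned in the counting.

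*B2m* lies on the plus strand of chromosome 2 from 122147686 to 122153083 and encodes the light chain shared by all class I molecules. Its levels were 5547, 2148.5, 3122 and 1787 CPM in WT and 7924, 5950.1, 6567 and 3592 CPM in 5xFAD. They were 1516, 745, 1601 and 3231 CPM in *Card9*-/- and 2856.5, 2999.5, 6176 and 11691 CPM in *Card9*-/-5xFAD. The groups overlapped in both comparisons, in each case through the highest library without transgenes, which was WT replicate 1 and *Card9*-/- replicate 4. The log2 fold change was 0.93 (SE 0.52, FDR = 0.558) in 5xFAD, 1.74 (SE 0.53, FDR = 0.151) in *Card9*-/-5xFAD and 1.34 (SE 0.37, FDR = 0.0423) when averaged, or 2.53-fold.

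**Figure D2:**
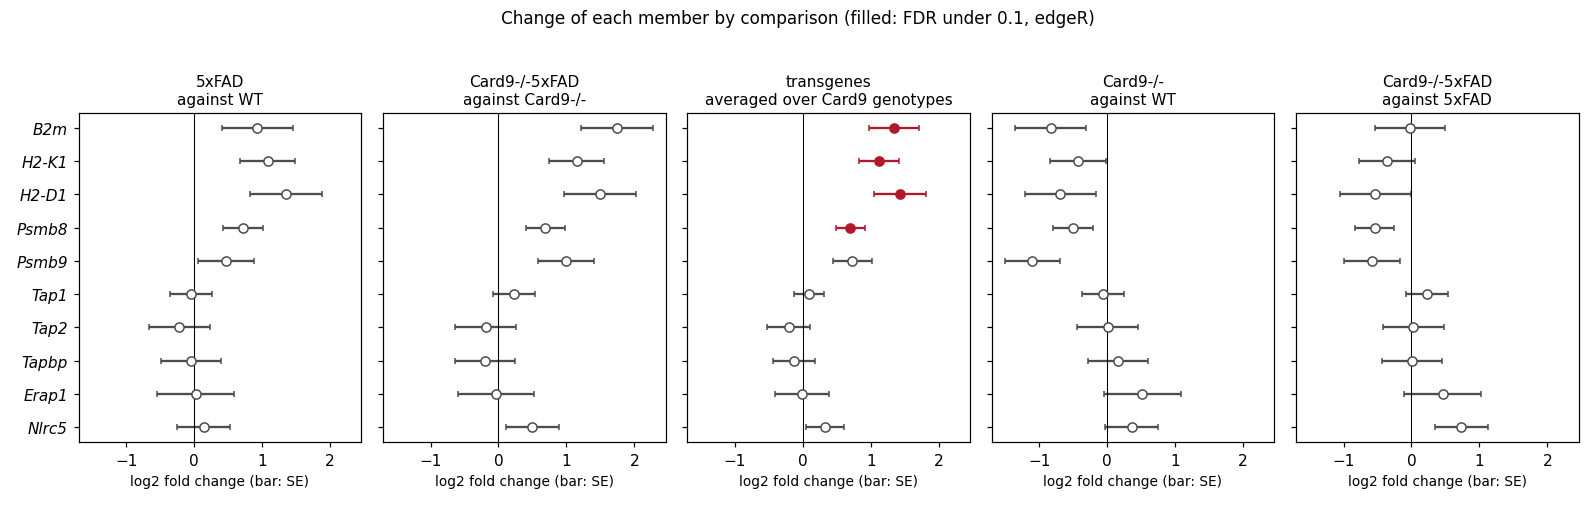
Log2 fold change of each member (points) with its SE (bars) in 5 comparisons, filled where the FDR was under 0.1. In the averaged transgene comparison H2-D1 (1.43), B2m (1.34), H2-K1 (1.12) and Psmb8 (0.70) are filled, and in the other 4 panels no point is.

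*Psmb8* replaces the standard subunit *Psmb5* when the immunoproteasome is built, and *Psmb9* replaces *Psmb6*. Levels of *Psmb8* were 279, 237, 246 and 177 CPM in WT and 506.5, 369, 393 and 276 CPM in 5xFAD. They were 187, 109.9, 174 and 191 CPM in *Card9*-/- and 229, 244, 389 and 202 CPM in *Card9*-/-5xFAD. All *Card9*-/-5xFAD libraries were above all *Card9*-/- libraries, while 5xFAD and WT overlapped through 5xFAD replicate 4, the lowest of its genotype. The log2 fold change of *Psmb8* was 0.72 (SE 0.29, FDR = 0.369) in 5xFAD, 0.69 (SE 0.29, FDR = 0.344) in *Card9*-/-5xFAD and 0.70 (SE 0.21, FDR = 0.0554) when averaged, or 1.63-fold. The FDR of *Psmb8* was over 0.1 in 6 of the 25 alternatives run at that threshold, and its highest value was 0.148. These were the fit with no filter and the fits without WT replicate 4, *Card9*-/- replicate 2, 5xFAD replicate 1, 5xFAD replicate 3 or *Card9*-/-5xFAD replicate 3.

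*Psmb9* was at 327.5, 179, 189 and 107 CPM in WT and at 459, 263, 243 and 144 CPM in 5xFAD. It was at 101, 77.9, 136 and 57.6 CPM in *Card9*-/- and at 120.5, 161, 262 and 199 CPM in *Card9*-/-5xFAD. The groups overlapped in both comparisons. Its averaged log2 fold change of 0.73 (SE 0.29, FDR = 0.143) did not pass, and 7 of the 25 alternatives called it, among them those without WT replicate 1 or 5xFAD replicate 4. *Psmb9* and *Tap1* overlap on opposite strands, and since no strand setting is given in the sources used here, reads of the 2 genes may be mixed.

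Of the 3 standard subunits that immunoproteasome subunits replace, *Psmb6* and *Psmb5* rose with the transgenes and *Psmb7* did not pass. *Psmb6* rose by a log2 fold change of 1.41 (SE 0.38, FDR = 0.0986) in *Card9*-/-5xFAD, and the averaged values were 1.03 (SE 0.27, FDR = 0.0307) for *Psmb6* and 0.68 (SE 0.21, FDR = 0.0620) for *Psmb5*. *Psmb7*, the standard counterpart of *Psmb10*, was at 0.59 (SE 0.27, FDR = 0.199). The log2 ratio of *Psmb8* over *Psmb5* counts was 1.11 ± 0.09 (SD, n = 4) in WT and 1.36 ± 0.07 (SD, n = 4) in 5xFAD. The highest WT library (1.23) was below the lowest 5xFAD library (1.28). The difference of 0.24 had an exact two-sided permutation p of 0.0286, the smallest that 4 libraries against 4 allow, and an adjusted p of 0.114 over the 4 ratio tests. In *Card9*-/-5xFAD against *Card9*-/-, the same ratio was 1.23 ± 0.15 against 1.45 ± 0.41 (SD, n = 4 each), a difference of −0.22 (exact permutation test, adjusted p = 0.457). The log2 ratio of *Psmb9* over *Psmb6* was −1.19 ± 0.13 in WT, −1.45 ± 0.31 in 5xFAD, −1.27 ± 0.33 in *Card9*-/- and −1.62 ± 0.30 in *Card9*-/-5xFAD (SD, n = 4 each). Both differences were negative, at −0.26 and −0.35, and neither passed (exact permutation test, adjusted p = 0.267 for each). After adjustment over the 4 tests, no ratio differed at a threshold of 0.05.

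*Tapbp*, *Psmb9*, *Tap1*, *Psmb8* and *Tap2* lie together on chromosome 17, between 33915899 and 34216321 in GRCm38, while *Erap1* lies on chromosome 13 (74639568 to 74693201) and *Nlrc5* on chromosome 8 (94434356 to 94527272). The transporter, loading and trimming genes were at log2 fold changes near 0 in the averaged comparison: 0.09 (SE 0.22, FDR = 0.837) for *Tap1*, −0.21 (SE 0.32, FDR = 0.738) for *Tap2*, −0.13 (SE 0.31, FDR = 0.840) for *Tapbp* and −0.01 (SE 0.40, FDR = 0.988) for *Erap1*. *Tap1* ran from 37.9 to 48.7 CPM in WT, 25.5 to 53.7 CPM in *Card9*-/-, 27.5 to 54.6 CPM in 5xFAD and 26.1 to 65.7 CPM in *Card9*-/-5xFAD. The range of each other genotype held the whole WT range. *Tap2* ran from 31.0 to 78.9 CPM in WT and from 23.6 to 80.9 CPM in *Card9*-/-5xFAD, the genotype with the widest range. *Tapbp* ran from 139 to 446.5 CPM in WT, 243 to 420.3 CPM in *Card9*-/-, 128 to 462.5 CPM in 5xFAD and 160.2 to 458 CPM in *Card9*-/-5xFAD. Within genotypes these genes varied by 1.28 to 4.40 times between the lowest and highest library, and *Erap1* had the widest spread, from 15.4 to 67.1 CPM in *Card9*-/- and from 18.9 to 83.2 CPM in *Card9*-/-5xFAD.

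*Nlrc5*, which with regulatory factor X binds class I promoters, had 11 to 193 counts per library. Its levels were 3.70, 2.74, 4.85 and 5.67 CPM in WT and 7.73, 3.29, 3.42 and 4.22 CPM in 5xFAD. They were 3.96, 7.98, 5.99 and 3.60 CPM in *Card9*-/- and 7.30, 6.96, 5.39 and 11.6 CPM in *Card9*-/-5xFAD. All groups overlapped, and the averaged log2 fold change was 0.32 (SE 0.28, FDR = 0.520). This direction was lost without the 4 libraries of low microglia markers, where the change was −0.04 (FDR = 0.910).

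Deviations from genotype means correlated positively between libraries of the same replicate number in both transgene comparisons. Pearson r was 0.275 to 0.708 in WT and 5xFAD, and 0.128 to 0.734 in *Card9*-/- and *Card9*-/-5xFAD. The highest r of each was between libraries of low microglia markers, replicate 1 in the first and replicate 4 in the second. In WT and *Card9*-/-5xFAD, r reached 0.609. Libraries of different numbers were not compared. *B2m*, *H2-K1*, *H2-D1*, *Psmb8* and *Psmb9* were higher with the transgenes in 8 of 8 same-numbered pairs, 4 of each *Card9* genotype, as were 9.96% of all genes. The log2 difference within pairs ran from 0.51 to 1.47 for *B2m* in 5xFAD and from 0.91 to 2.01 in *Card9*-/-5xFAD. For *H2-D1* it ran from 0.83 to 2.69 and from 1.18 to 1.93, and for *H2-K1* from 0.53 to 1.89 and from 0.61 to 1.44. *Tap1* and *Erap1* were higher in 5 of 8 pairs, *Nlrc5* in 4, and *Tap2* and *Tapbp* in 3. A fit with these numbers as blocks within each *Card9* genotype changed the calls. With this block, chosen after the data were seen, 4 members passed in 5xFAD against WT (*H2-D1*, *H2-K1*, *B2m* and *Psmb8*; FDR = 0.00610, 0.0138, 0.0203 and 0.0546), when 16% of all genes did. In *Card9*-/-5xFAD against *Card9*-/-, 5 members passed, which were these 4 and *Psmb9* (log2 fold change 1.00, FDR = 0.0113), when 20.4% of all genes did. All were higher with the transgenes. Without the 4 libraries of low microglia markers, 3 members passed in the first comparison (*H2-D1*, *H2-K1* and *B2m*, with 7.97% of all genes) and 4 in the second (the same 3 and *Psmb8*, with 16.7%). The averaged comparison then called 5 members, with 34.5% of all genes. A block across all 4 genotypes, in contrast, called 0 members in either comparison, with 2.11% and 2.34% of all genes.

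Members also passed in the separate comparisons under other settings, each of which called more of all genes too. With 1 surrogate variable, 4 members passed in 5xFAD against WT and 4 in *Card9*-/-5xFAD against *Card9*-/-, with 14.2% and 17.7% of all genes. With a covariate for a slope on exon length, described further on, 3 and 3 passed, with 6.29% and 5.78%. DESeq2 on only the groups compared called 2 and 1, with 4% and 2.59%. In the averaged comparison the settings called between 3 and 5 members. The share of all genes called there was 3.57% with no filter, 6.34% at an FDR of 0.05, 11.1% with DESeq2 size factors, 11.2% with at least 10 counts in every library, 12.9% with the block across genotypes and 13.2% with DESeq2. It was 24.6% with the length covariate, 39.5% with the surrogate variable and 41.9% with the block within *Card9* genotypes.

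**Figure D3:**
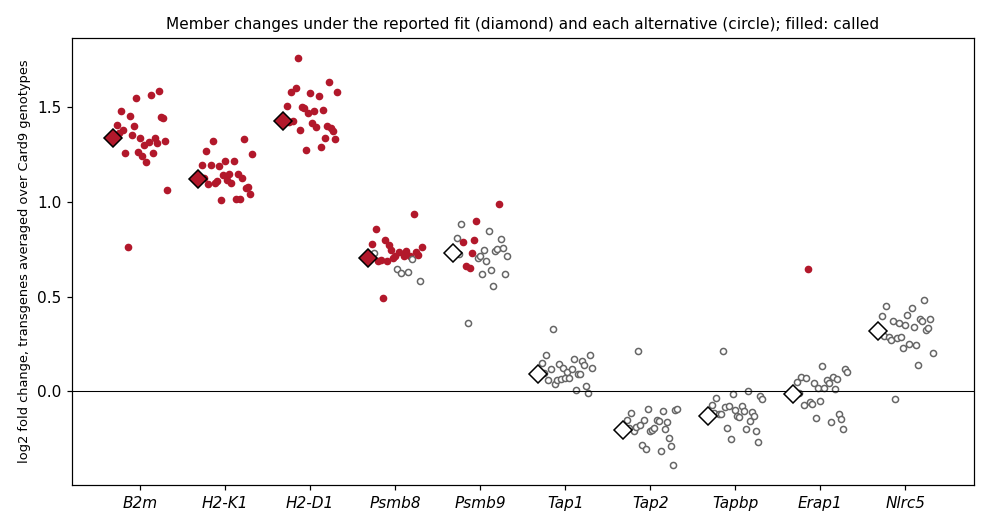
Log2 fold change of each member for the transgenes averaged over Card9 genotypes, in the fit reported (diamond) and under each alternative, including each library left out (circles); filled points passed the FDR threshold of that setting. H2-D1, B2m and H2-K1 are filled throughout, at 1.27 to 1.76, 0.76 to 1.59 and 1.01 to 1.33, and Tap1, Tap2, Tapbp and Nlrc5 are filled nowhere.

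The second question was whether loss of *Card9* changed the pathway. No member was called between *Card9*-/- and WT or between *Card9*-/-5xFAD and 5xFAD with edgeR or with DESeq2 on all libraries. Of all genes, edgeR called 0% in both comparisons, and DESeq2 called 0.0169% and 0.00675%. In counts simulated for 5xFAD against WT, edgeR called 5 of 65 genes changed 2-fold, so changes of this size could be missed. At an unadjusted p under 0.05, 1 of 10 members (*Psmb9*) was counted in the first and 0 of 10 in the second, against 4.11% and 2.52% of all genes. *Psmb9* was at 200.6 ± 92.1 CPM (SD, n = 4) in WT and 93.2 ± 33.7 CPM (SD, n = 4) in *Card9*-/-, a log2 fold change of −1.10 (SE 0.41, FDR = 0.970), and the libraries overlapped between 107 and 136 CPM. In *Card9*-/-5xFAD against 5xFAD its log2 fold change was −0.58 (SE 0.41, FDR = 0.993). Standard proteasome core genes and NK cell markers also had mostly negative changes, with no gene called. In *Card9*-/- against WT, 0 of 14 core genes had a positive change, against 59.5% of all genes. Of these, 9 of 14 had an unadjusted p under 0.05 and their median was −0.81. In *Card9*-/-5xFAD against 5xFAD, 1 of 14 had a positive change, against 62% of all genes. Here 0 of 14 had an unadjusted p under 0.05, and the median was −0.40. Of 7 NK cell markers tested, 0 had a positive change over *Card9* genotypes, against 62.4% of all genes. Their median was −1.19, and 5 of 7 had an unadjusted p under 0.05, against 9.12% of all genes. Summed NK cell markers ran from 62.9 to 401 CPM in WT and from 63.8 to 75.6 CPM in *Card9*-/-, and from 46.0 to 219 CPM in 5xFAD and from 31.5 to 65.7 CPM in *Card9*-/-5xFAD. The part of these cells in the level of *Psmb9*, and that of the slope on exon length described further on, was not tested. The values of *H2-D1* were −0.69 (SE 0.52, FDR = 0.970) and −0.53 (SE 0.52, FDR = 0.993), those of *H2-K1* −0.43 (SE 0.41) and −0.36 (SE 0.41), and those of *B2m* −0.83 (SE 0.52) and −0.02 (SE 0.52). *Nlrc5* had the opposite sign, at 0.36 (SE 0.39) and 0.73 (SE 0.39). With *Card9* genotypes compared over both transgene states, 0 of 10 members passed (0.0276% of all genes did), and the lowest FDR was 0.496, that of *Psmb9* (log2 fold change −0.84, SE 0.29). At an unadjusted p under 0.05, 2 of 10 members (*Psmb9* and *Psmb8*) were counted, against 9.12% of all genes. DESeq2 on all libraries called *Psmb9* in that comparison, where its own filter left 2623 genes with an adjusted p and 4.04% of them were called. With 1 surrogate variable *B2m* and *Psmb9* passed there, with 5.42% of all genes.

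The response to the transgenes was not shown to differ with *Card9*. The interaction term, the log2 fold change in *Card9*-/-5xFAD against *Card9*-/- minus that in 5xFAD against WT, called 0 of 10 members and 0% of all genes with edgeR, and 0 of 10 members with DESeq2, which called 0.00338% of all genes. At an unadjusted p under 0.05, 0 of 10 members were counted, against 0.537% of all genes. For *B2m* it was 0.81 (SE 0.73, unadjusted p = 0.285), the lowest p of the members, and for *Psmb9* 0.53 (SE 0.58). For *H2-D1*, *H2-K1* and *Psmb8* it was 0.16 (SE 0.74), 0.07 (SE 0.57) and −0.03 (SE 0.41). The SE of this difference ran from 0.41 for *Psmb8* to 0.80 for *Erap1*.

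Other genes of the pathway were taken from lists of known members, also chosen with earlier results of these data known. Their counts in the averaged transgene comparison stand against 5.62% of all genes called higher, 5.73% called lower and 38.3% with a positive change. Of 12 other class I heavy chain genes tested, 5 rose and 1 fell in the averaged transgene comparison, with a median log2 fold change of 0.74. *H2-Q7*, a nonclassical heavy chain gene, rose by 1.75 (SE 0.38, FDR = 0.0104), and *H2-M3*, whose product presents formylated peptides, rose by 1.08 (SE 0.26, FDR = 0.0213). *H2-Q6* (1.20, FDR = 0.0472) and *H2-T23*, the ligand of CD94/NKG2 receptors (1.14, FDR = 0.0510), also rose. *Cd1d1*, which presents lipids rather than peptides, fell by 0.75 on the log2 scale (SE 0.24, FDR = 0.0787). These heavy chain genes are similar in sequence, so reads that match several of them may be left out or misassigned. *H2-M3* was also 1 of the 27 gene symbols with the spaced promoter motif.

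Of 10 other loading and trimming genes, such as *Calr*, *Canx* and *Pdia3*, 0 passed in the averaged comparison with edgeR, with a median of −0.03. At an unadjusted p under 0.05 there were 3 of 10, against 22.8% of all genes, and *Lnpep*, a peptidase gene, had the lowest of them (log2 fold change −0.39, edgeR FDR = 0.174). Of the 14 standard proteasome core genes, 14 had a positive averaged change, against 38.3% of all genes, and 6 passed, against 5.62% called higher, with a median of 0.68. Besides *Psmb6* and *Psmb5*, they included *Psmb1* (0.76, FDR = 0.0424) and *Psma4* (0.70, FDR = 0.0634). The main transcripts of *Psmb6* and *Psmb5* have 798 and 899 bases. The part of transcript length in the changes of these core genes was not tested. *Psme2*, a subunit of the interferon-induced proteasome activator, rose by 0.85 (SE 0.28, FDR = 0.0825) and was the only 1 of 3 other interferon-induced proteasome genes to pass.

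Of 16 regulators upstream of the pathway, 0 rose and 2 fell in the averaged comparison, a share near the 11.3% of all genes called in either direction. *Ciita*, the transactivator of class II genes, fell by 1.33 on the log2 scale (SE 0.24, FDR = 0.00265) and was also called in both separate comparisons, at −1.26 (FDR = 0.0891) and −1.40 (FDR = 0.0575). *Nfkb1*, an NF-kB subunit, fell by 0.63 (SE 0.19, FDR = 0.0634). Of 8 interferon receptors and kinases, *Ifnar2* rose by 0.75 (SE 0.21, FDR = 0.0485) and no other passed, again near that share. Of 30 interferon-induced genes, 8 rose and 3 fell, with a median of 0.65. *Isg15* (1.59, FDR = 0.0127), *Zbp1* (1.51, FDR = 0.0132), *Slfn5* (1.24, FDR = 0.0150) and *Bst2* (1.33, FDR = 0.0154) had the lowest FDR of those that rose. The 3 that fell were *Gbp7* (−1.27, FDR = 0.0151), *Gbp3* (−0.99, FDR = 0.0388), both interferon-induced GTPases, and *Iigp1* (−1.21, FDR = 0.0963). *Bst2* and *Isg15* also passed in *Card9*-/-5xFAD against *Card9*-/-, and *Gbp7* in 5xFAD against WT.

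Of 6 MHC class II genes, *H2-DMa* rose (1.00, SE 0.27, FDR = 0.0395) and 0 others passed, with a median of −0.08. Of 8 class I receptor genes tested, 0 rose and 3 fell: *Pirb* (−1.02, FDR = 0.00290) and *Lilr4b* (−0.89, FDR = 0.0156), which encode inhibitory or related immunoglobulin-like receptors of myeloid cells, and *Klrc1* (−1.60, FDR = 0.0596), an NK cell receptor gene at 0 to 3.53 CPM. Among 20 disease-associated microglia genes, 18 rose and 0 fell in the averaged comparison, with a median of 2.16, so the median change of the class I members was smaller than that of this list on the log2 scale.

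The sorted cells expressed their defining markers in every library. In these bulk libraries, fewer cells of a type and less RNA per cell cannot be told apart. Class I genes are expressed by nearly all nucleated cells, so lymphoid, vascular and other myeloid cells could contribute reads. In the averaged transgene comparison edgeR called 0 of 8 microglia markers, with 1 of 8 at an unadjusted p under 0.05. Among markers of other cells, 3 of 5 T cell markers tested were called, all lower, as were 1 of 7 NK cell, 2 of 6 monocyte, 4 of 7 border-associated macrophage, 2 of 7 neutrophil, 1 of 5 dendritic cell and 1 of 7 endothelial cell markers. Over all genes 11.3% were called and 5.73% were called lower, so a single call among 5 to 7 markers is near the share over all genes. Of 6 astrocyte markers, 2 rose, with *Gfap* at 3.57 (FDR = 0.00043) from 0.221 to 19.1 CPM, and none of the B cell, neuron, oligodendrocyte or choroid plexus markers tested passed. Border-associated macrophage markers summed to 1064 to 1732 CPM in WT and 608 to 847 CPM in 5xFAD, and to 981 to 1940.2 CPM in *Card9*-/- and 420.3 to 1825 CPM in *Card9*-/-5xFAD. T cell markers summed to at most 63.5 CPM and NK cell markers to at most 401 CPM in any library. The part of these cells in the class I changes was not tested.

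The members did not vary as 1 unit among libraries of the same genotype. Deviations of log2 CPM from the genotype means are described here over the 16 libraries, which share depth and composition. *H2-K1* and *H2-D1* varied together (Pearson r = 0.98), whereas *B2m* varied against both (r = −0.59 and −0.63). The part of misassigned reads in the r of *H2-K1* and *H2-D1* was not tested. *B2m* also ran against *Tap2* (r = −0.88) and *Erap1* (r = −0.89), while *Tap2* and *Erap1* ran together (r = 0.94). *Psmb8* and *Psmb9* had an r of 0.66.

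Both sides of this split moved with measures of the libraries. The summed microglia markers had an r of 0.82 with *H2-D1*, 0.73 with *H2-K1* and −0.76 with *B2m*, and was positive with the loading and trimming genes *Tapbp* (0.87), *Tap2* (0.85) and *Erap1* (0.78). The second measure was each library's slope on log2 exon length, the length over all annotated exons of a gene. It was fitted to the deviation of log2 CPM from each gene's mean over all libraries. This slope ran from −0.225 to 0.285, where a low value means relatively more reads from genes of short exon length. By genotype, it ran from −0.135 to 0.147 in WT and from −0.225 to 0.07 in 5xFAD. It ran from −0.135 to 0.285 in *Card9*-/- and from −0.16 to 0.141 in *Card9*-/-5xFAD. The slope thus ran lower with the transgenes at both ends of its range in each *Card9* genotype. With loss of *Card9* its upper end was higher in both transgene states, and its lower end was higher only with the transgenes. The r of the slope was −0.94 with *B2m*, whose exon length of 860 bases is the shortest of the members. With *Erap1*, whose exon length is 7280 bases, it was 0.97. It was −0.69 with *Psmb8*, −0.52 with *Psmb9*, 0.50 with *H2-D1* and 0.44 with *H2-K1*. With the slope as a covariate, chosen after the data were seen, the averaged change fell to 0.76 (FDR = 0.0153) for *B2m* and rose to 1.76 (FDR = 0.00881) for *H2-D1* and 1.32 (FDR = 0.00876) for *H2-K1*. *Erap1* was then called at 0.64 (FDR = 0.0157), against −0.01 without the covariate. *Psmb8* was also called with the covariate, and *Psmb9* was not. Over all 25 alternatives, the averaged change ran from 0.49 to 0.94 for *Psmb8* and from 0.36 to 0.99 for *Psmb9*. The 4 libraries of low microglia markers had the lowest *H2-D1* level of their genotype in 4 of 4 genotypes, and the lowest *H2-K1* level in all but 5xFAD. The gap was small in 5xFAD, where *H2-D1* was at 3094 CPM against 3261 to 5517 CPM in the other libraries.

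**Figure D4:**
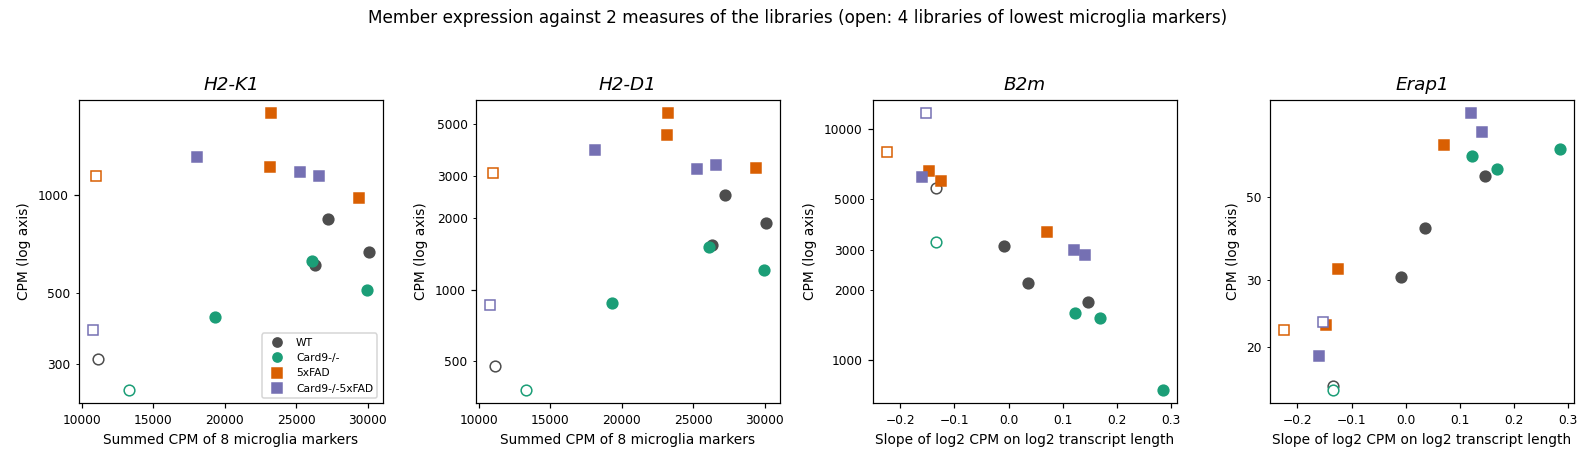
CPM of H2-K1 and H2-D1 (log axis) is shown against the summed CPM of 8 microglia markers for the 16 libraries. CPM of B2m and Erap1 (log axis) is shown against the slope on length. The slope is that of log2 CPM, as deviation from each gene's mean, on log2 exon length (the axis says transcript length). Open points are the 4 libraries of lowest microglia markers. B2m is lower and Erap1 higher at high slopes, and among the open points the squares (with transgenes) lie above the circles for H2-K1 and H2-D1.

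The genes whose deviations were most like the mean deviation of the 10 members over the 16 libraries were *Abcg2* (Pearson r = 0.956), *Bzw1* (0.951), *Ikbip* (0.935), *Zfp758* (0.931) and *Irgm1* (0.931). *Irgm1* is an interferon-induced GTPase gene and stands on the list of interferon-induced genes, while *Abcg2*, *Bzw1*, *Ikbip* and *Zfp758* do not. This mean joins members that ran against each other, such as *B2m* and *Erap1* (r = −0.89), so it is not a profile of the pathway.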

How the data were processed

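RNA of sorted CD11b+ brain cells was sequenced in 16 libraries, 4 per genotype, grouped by the sample labels. The authors aligned reads to mm10 with HISAT2, filtered them with SAMtools and counted them per gene with HTSeq, and they deposited raw counts per gene and library. Versions, strand setting and annotation are not given in the sources used here. HTSeq by default leaves out reads that map to several places, which can lower counts of heavy chain genes similar in sequence.

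Counts were tested in R 4.3.3 with edgeR 4.0.16 (quasi-likelihood test, TMM normalization, filterByExpr with a minimum count of 10, 1 fit of all 16 libraries), with Benjamini-Hochberg adjustment over the 14513 genes and an FDR threshold of 0.1. SEs were taken from the change and its F statistic, and CPM on the log2 scale carries a prior count of 2. Levels per kb use the main transcript in GENCODE M21 (GRCm38). Log2 ratios add 0.5 to each count, and were compared by exact two-sided permutation tests in Python with scipy 1.17.1, adjusted over 4 tests. Scripts were tested on counts simulated for 5xFAD against WT. Of the genes changed 2-fold, 5 of 65 were called, of those changed 4-fold 40 of 67, and of those changed 8-fold 57 of 66. Of 14513 unchanged genes, 19 were called. Changes of 2-fold were thus mostly missed in a comparison of 2 genotypes. The members and lists were chosen with earlier results of these data known. Text names all members, the genes of each list that passed (at most 4 of lowest FDR in each direction, otherwise the 1 of lowest p), *Psmb5*, *Psmb6*, *Psmb7*, *Card9* and the 5 genes most alike.

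Alternatives were DESeq2 1.42.0 on all libraries or only the groups compared, DESeq2 size factors, no filter, at least 10 counts in every library, an FDR of 0.05, edgeR on only the groups compared, a block for replicate numbers, a fit with 1 surrogate variable (sva 3.50.0) and each library left out. Added after seeing the data were a covariate for the slope on exon length, leaving out the 4 libraries of lowest microglia markers, and the block within each *Card9* genotype. Deviations from genotype means correlated between same-numbered libraries from 0.275 to 0.708 in WT and 5xFAD and from 0.128 to 0.734 in *Card9*-/- and *Card9*-/-5xFAD, and from −0.710 to 0.609 in the other pairs of genotypes. The pairing thus comes from these values, not the labels, and libraries of different numbers were not compared. Among the 24 pairs of libraries within genotypes, counts differed beyond sampling noise in every one (chi-square divided by its degrees of freedom at least 6.28).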

Additional observations from a re-analysis of the deposited data

Results flagged for a closer look

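*Erap1* in *Card9*-/- replicate 4 stood apart from the other libraries of its genotype, at 15.4 CPM against 59.4 to 67.1 CPM, a gap of 0.853 of the whole range against a critical value of 0.829. This library is 1 of the 4 with the lowest microglia markers. It was the only 1 of 48 sets of 4 libraries (10 members and 2 ratios in 4 genotypes) past that value, and chance flags about 1 in 20.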

How the results depend on the processing

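*H2-D1*, *H2-K1* and *B2m* passed in the averaged transgene comparison under all 25 alternatives at an FDR of 0.1, with a highest FDR of 0.0792, 0.0849 and 0.0940. The reported fit read at an FDR of 0.05 also called these 3, without *Psmb8*. The averaged count of members ran from 3 to 5 with a library left out, while all genes called ran from 955 (without WT replicate 4) to 3053 (without *Card9*-/- replicate 4) against 1647. With a library left out, 164 to 316 genes passed in 5xFAD against WT, and 120 to 720 in *Card9*-/-5xFAD against *Card9*-/-. In 5xFAD against WT, the count rose from 0 members (304 genes in all) to 4 with 1 surrogate variable (2068 genes) or with the block within *Card9* genotype (2322), to 3 with the length covariate (913) or without the 4 libraries of low markers (1144), and to 2 with DESeq2 on only the groups compared (669). In *Card9*-/-5xFAD against *Card9*-/-, it rose from 0 (286 genes) to 5 with the block within *Card9* genotype (2966), to 4 with 1 surrogate variable (2567) or without the 4 libraries (2394), to 3 with the length covariate (839) or DESeq2 on all libraries (812) and to 1 with DESeq2 on only the groups compared (433). With a library left out it ran from 0 to 2: *H2-K1* and *H2-D1* passed without *Card9*-/-5xFAD replicate 4, and *B2m* without *Card9*-/- replicate 4. Over *Card9* genotypes, 2 members (*B2m* and *Psmb9*) passed with 1 surrogate variable (787 genes against 4) and 1 with DESeq2 on all libraries. The replicate block across all genotypes called 0 members in each separate comparison and 5 in the averaged one, *Psmb9* being added.

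Signs turned for small changes. The averaged change became 0.21 for *Tap2* and 0.21 for *Tapbp* with the length covariate. For *Erap1* it became 0.05 with DESeq2 size factors, 0.08 with 10 counts in every library, 0.07 with 1 surrogate variable, 0.64 with the length covariate and 0.04 with DESeq2. For *Nlrc5* it became −0.04 without the 4 libraries, and −0.23 in 5xFAD against WT. For *B2m*, *Card9*-/-5xFAD against 5xFAD became 0.30 with the length covariate. With a library left out, the averaged change ran from −0.01 to 0.19 for *Tap1*, −0.27 to 0.00 for *Tapbp* and −0.20 to 0.14 for *Erap1*, that of *Nlrc5* in 5xFAD against WT from −0.21 to 0.34, and that of *B2m* in *Card9*-/-5xFAD against 5xFAD from −0.58 to 0.19. Over all members, comparisons and settings, the sign changed in 174 of 1550 cases, 1 of them called (*Erap1*). The cause was not tested.

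The *Psmb8* over *Psmb5* difference in 5xFAD was 0.24 with libraries paired by replicate number (replicate block, exact sign-flip p = 0.125) and 0.21 to 0.28 with a library left out (exact permutation p = 0.0571). Neither design can give a lower p. Depth limits *Nlrc5* most, with 11 to 193 counts per library.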
